A study of Mus musculus with 43 samples.

Results

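The comparison described here is that of anti-PD-1 with isotype IgG in the primary tumour of a CRISPR screen of metabolic genes in CD8+ T cells. It comprised the 6 primary tumour libraries, 3 per treatment, of the 41 libraries with values among 43 labelled samples. All 6 were chosen by their labels, and no measured value entered the choice. The transferred cells were OT-I T cells with a Cas9 knock-in (OT-I:Rosa26-Cas9), whose receptor recognises an ovalbumin peptide, and all carried a lentiviral sgRNA library with a CD90.1 reporter. Recipients of both groups were Rosa26-Cas9 mice on a C57BL/6J background, 6 to 12 weeks old, with an orthotopic KPC_OVA pancreatic tumour. KPC_OVA is a cell line from a mouse pancreatic cancer model with a *p53* R172H allele that was made to present the ovalbumin peptide. Adoptive cell transfer (ACT) took place 5 days after tumour injection. From that day, anti-PD-1 or rat IgG was injected at 10 mg per kg every 2 days, and CD90.1+ cells were sorted from the tumour 7 days after ACT. Cells kept on the day of transfer (T0, 3 libraries) received neither antibody. The host kept its own T cells and its own Cas9, the tumour was a single cell line, libraries were sequenced in 3 runs, and the number of mice behind each library was not given in the sources used here.

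PD-1 is an inhibitory receptor that activated T cells place on their surface, and its ligands on tumour and myeloid cells dampen signalling from the T cell receptor. An antibody to PD-1 removes that brake and can let tumour-reactive T cells divide and persist. In this screen, the study reported no difference in tumour size between the treatments. In a pooled knockout screen, cells are given sgRNAs from a library. The abundance of an sgRNA in genomic DNA then follows how the cells that carry it expanded, survived and stayed in the tissue. How many sgRNAs a cell carried in this screen was not given in the sources used here. Fewer cells that reached the tumour and less division there cannot be told apart in such data.

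The library held 10640 sgRNAs, of which 250 were nontargeting controls and the remainder targeted 2078 genes with 5 sgRNAs each. A level is the mean log2(value + 1) of the 5 sgRNAs of a gene minus the median of the nontargeting sgRNAs in that library. A level of 0, called neutral here, is thus the median of sgRNAs that target no gene. Over all genes the median level was 0.21 at T0, -0.10 under IgG and -0.03 under anti-PD-1. A difference is the mean level under anti-PD-1 minus that under IgG, and differences of low levels are compressed by the added 1. Libraries summed to a signal of 2275700 to 3392630. Because the values are not read counts, the read depth behind them is unknown.

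Most measures of unevenness had a higher mean under anti-PD-1, and 3 against 3 libraries are too few for any of them to reach a p under 0.1. Among nontargeting sgRNAs, which cut no gene, the SD of the log2 signal was 1.43, 1.53 and 1.58 in the IgG libraries and 1.58, 1.65 and 1.64 in the anti-PD-1 libraries. The groups did not overlap, with a two-sided exact permutation p of 0.1, the smallest that 3 against 3 libraries allow. The Gini index, which runs from 0 for equal shares upwards, was 0.496 ± 0.0188 under IgG and 0.540 ± 0.034 under anti-PD-1 (SD, n = 3; exact permutation p = 0.2). The most abundant 1% of sgRNAs held 7.63% ± 1.81 of the signal under IgG and 8.99% ± 1.65 under anti-PD-1 (exact permutation p = 0.4). The mean share of the single most abundant sgRNA ran the other way, with 1.04% ± 1.53 of the signal under IgG and 0.258% ± 0.0750 under anti-PD-1 (exact permutation p = 1). That rested on IgG replicate 3, at 2.80%, whereas IgG replicates 1 and 2 were at 0.175% and 0.134%. The anti-PD-1 libraries were at 0.177%, 0.273% and 0.325%. sgRNAs at the lowest value that libraries of a replicate number shared made up 3.30% ± 0.589 and 3.74% ± 0.729 (exact permutation p = 0.4), whereas at T0 they made up 0.019% or less. Over all genes, levels of any 2 of the 6 libraries correlated with Pearson's r between 0.87 and 0.94, with a range of 0.90 to 0.93 for pairs of the same treatment and of 0.87 to 0.94 for pairs of different treatments. These correlations are across 2078 genes, which are not independent replicates.

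Anti-PD-1 changed the abundance of few knockouts in the tumour beyond the spread between libraries. Of 2078 genes, 3 passed an adjusted p of at most 0.05 (limma with Benjamini-Hochberg adjustment), and knockouts of all 3 fell under anti-PD-1: *Slc35c1*, *Rpia* and *Atp5d*. These were 0.144% of the genes tested, and no gene rose past the threshold. At an unadjusted p under 0.05, 90 genes lay higher and 81 lower. Differences were narrow, with a median of 0.06 and an SD of 0.44 over all genes, and 97.4% of genes lay within 1 log2 unit of 0. In 163 genes (7.84%) every anti-PD-1 library lay above every IgG library, and in 99 genes (4.76%) every one lay below. Genes with either pattern are called separated in what follows. The 6 libraries can be split 3 against 3 in 20 ways, and each direction is 1 of the 20. Separation is thus common without any effect, and by itself it is a description and not a call. Of the separated genes, 122 higher (5.87%) and 69 lower (3.32%) also had at least 4 sgRNAs in that direction and the same sign in each replicate number. Values as deposited, without centring on the nontargeting sgRNAs, moved the 163 and 99 separated genes to 48 higher (2.31%) and 86 lower (4.14%). The nontargeting median was lower by 0.13 on the log2 scale under anti-PD-1 (exact permutation p = 0.7), with an SD between libraries of 0.32 under IgG and 0.37 under anti-PD-1. The same 3 genes were called with either scaling.

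**Figure D1:**
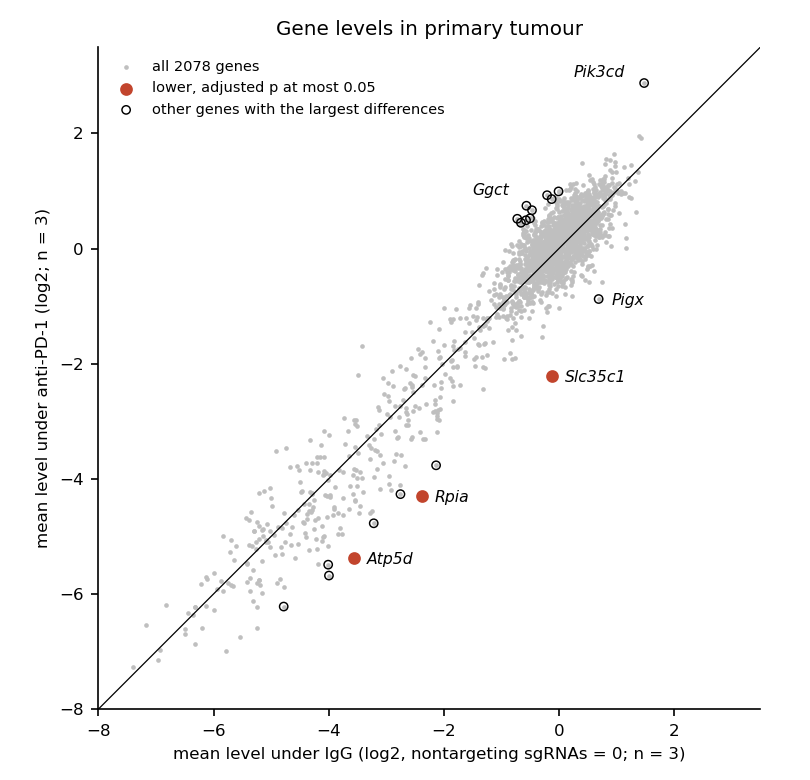
Mean level of each of the 2078 genes under IgG (horizontal axis) and anti-PD-1 (vertical axis) in primary tumour, in log2 units with nontargeting sgRNAs at 0 and 3 libraries per mean; the diagonal marks equal levels. Filled red points are *Slc35c1*, *Rpia* and *Atp5d*, which passed the threshold, and open circles are the other genes with the largest differences among those with separated groups, at least 4 sgRNAs in that direction and 1 sign in all replicate numbers; *Pik3cd* stands alone at the upper right, at 1.48 under IgG and 2.87 under anti-PD-1.

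*Slc35c1* encodes the transporter that carries GDP-fucose into the Golgi, where fucosyltransferases use it. Its knockouts were at 0.02, -0.44 and 0.06 in the 3 IgG libraries and at -2.23, -1.45 and -2.96 in the anti-PD-1 libraries. At T0 they were at -0.48, -0.32 and -0.44. The knockouts were thus near neutral before transfer and in IgG tumours, and the anti-PD-1 libraries all lay more than 1 log2 unit below. The difference was -2.09 with a standard error of 0.38 (adjusted p = 0.0319, limma with Benjamini-Hochberg adjustment), the lowest of all genes. All 5 sgRNAs were lower, by differences that ran from -4.33 to -0.26, and in 3 of them the groups did not overlap. The sgRNA with the lowest difference had a deposited signal of 645.0, 639.6 and 316.1 under IgG and of 62.7, 137.8 and 0.402 under anti-PD-1. No sgRNA of the gene was at the shared lowest value in any of the 6 libraries. That measure counts only values shared by libraries of a replicate number, so a low signal in a single library, such as 0.402, can escape it. With the median of the sgRNAs the difference of *Slc35c1* was -1.20 (adjusted p = 0.684, limma with Benjamini-Hochberg adjustment).

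Other genes of the same pathway were set beside *Slc35c1* after their values were seen. GDP-fucose is made from GDP-mannose by *Gmds* and *Tsta3* or salvaged by *Fuk* and *Fpgt*, and *Fut8* attaches it to the core of N-glycans. *Gmds* knockouts were at -0.09, 0.10 and -0.03 under IgG and at -0.73, -1.02 and -1.35 under anti-PD-1. *Fut8* knockouts were at -0.46, -0.31 and -0.14 under IgG and at -1.51, -0.92 and -2.20 under anti-PD-1. In both genes every anti-PD-1 library lay below every IgG library, and both lay close to neutral at T0, with means of 0.09 and -0.15. The difference of *Gmds* was -1.02 with a standard error of 0.32, and all 5 of its sgRNAs were lower, but the adjusted p was 0.411. That of *Fut8* was -1.24 with a standard error of 0.36 (adjusted p = 0.403), with 4 of 5 sgRNAs lower. Neither passed the limma threshold.

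The rest of the pathway did not share the pattern. *Tsta3*, which acts directly after *Gmds*, had a difference of 0.27, and the salvage enzymes *Fuk* and *Fpgt* had differences of -0.22 and 0.12. *Fut4* and *Fut7*, which fucosylate the outer branches of glycans in leukocytes, had differences of -0.09 and 0.08, whose signs turned when 1 library was left out. *Fut1*, *Fut2* and *Fut9* had differences of 0.62, -0.30 and 0.55, and of these only *Fut9* had groups that did not overlap. Over the 11 genes the median difference was -0.09, with 3 genes whose groups were separated downwards and 1 upwards, against 4.76% and 7.84% of all genes.

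*Rpia*, ribose-5-phosphate isomerase of the pentose phosphate pathway, was already depleted in IgG tumours. Its knockouts were at -2.81, -1.98 and -2.33 under IgG and at -3.91, -4.60 and -4.37 under anti-PD-1, from a mean of 0.68 at T0. The groups did not overlap, the difference was -1.92 with a standard error of 0.34 (adjusted p = 0.0319, limma with Benjamini-Hochberg adjustment), and all 5 sgRNAs were lower. Of the 15 values per group (5 sgRNAs in 3 libraries), none was at the shared lowest value under IgG and 5 were under anti-PD-1. With log2(value + 10), which counts such low signals less, the difference was -0.93 and the adjusted p was 0.355. The other enzymes of the pathway, named after their values were seen, had overlapping groups. *G6pdx*, which commits glucose to it, lay at -3.50 under IgG and at -4.12 under anti-PD-1, and *Pgls* and *Rpe* had differences of -0.55 and -0.59. *Pgd* lay at -5.06 and -5.10, and *Tkt*, the transketolase, at -5.31 and -4.91. *Taldo1*, the transaldolase, lay nearest to neutral, at -0.56 and -0.24.

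*Atp5d* encodes a subunit of the F1 part of the mitochondrial ATP synthase. Its knockouts were at -3.98, -3.54 and -3.15 under IgG and at -5.18, -5.35 and -5.57 under anti-PD-1, against -0.37 at T0. The difference was -1.81 with a standard error of 0.33 (adjusted p = 0.0319), and 4 of 5 sgRNAs were lower. Of 15 values per group, 2 under IgG and 5 under anti-PD-1 were at the shared lowest value. With log2(value + 10) the difference was -0.95 and the adjusted p was 0.355, so that of the 3 genes only *Slc35c1* passed on that scale. Dropout at the lowest value thus moved with the results for *Rpia* and *Atp5d*, and its part in them was not tested.

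These calls rested on few libraries. Without any 1 of the 3 IgG libraries, or without anti-PD-1 replicate 3, none of the 3 genes passed. Without anti-PD-1 replicate 2, *Slc35c1* alone passed, and without anti-PD-1 replicate 1 only *Polr3b* (lower) and *Atp6v1h* (higher) passed. All 3 genes kept their negative sign in every such fit, with differences of -2.47 to -1.72 for *Slc35c1*, -2.13 to -1.72 for *Rpia* and -2.02 to -1.61 for *Atp5d*. When libraries of all organs set the spread in one fit, no gene was called.

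**Figure D2:**
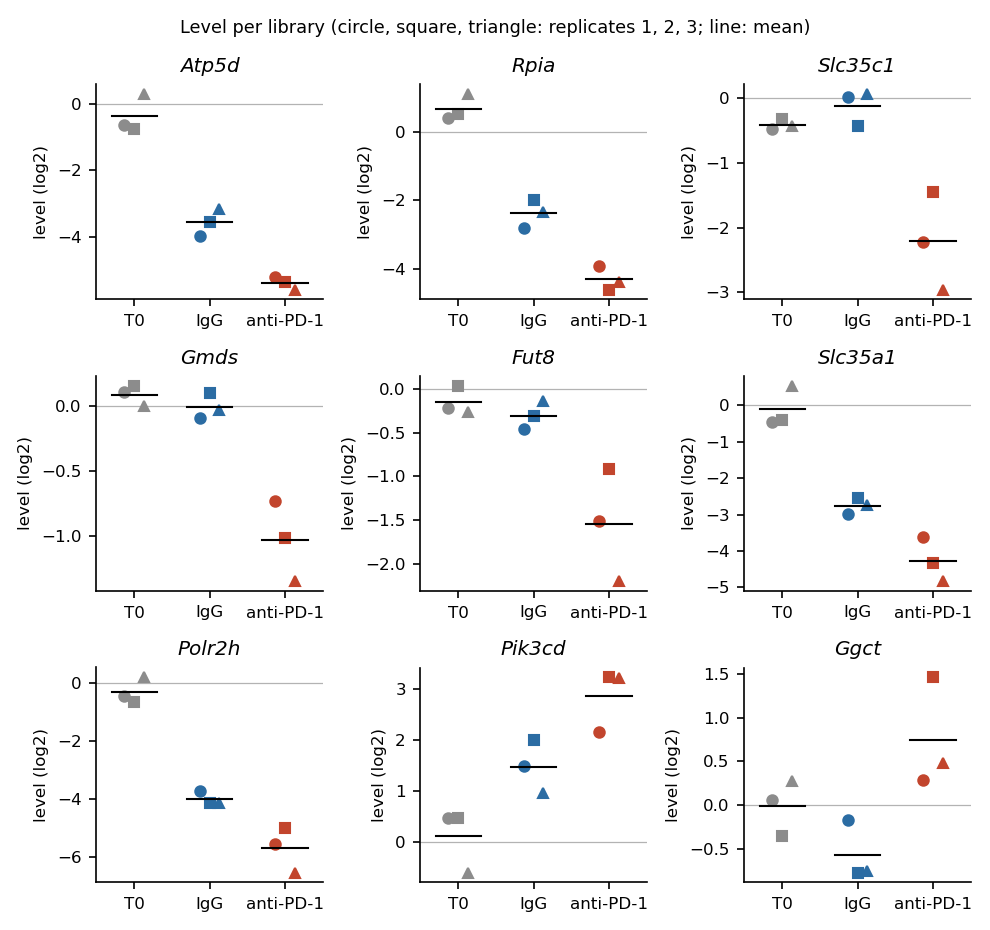
Level (log2, nontargeting sgRNAs at 0) of 9 genes in each T0, IgG and anti-PD-1 library of primary tumour; circles, squares and triangles are replicates 1, 2 and 3 and the line is the mean. In all 9 genes the IgG and anti-PD-1 points do not overlap; *Slc35c1*, *Gmds* and *Fut8* stay near their T0 level under IgG, whereas *Rpia*, *Atp5d*, *Slc35a1* and *Polr2h* lie below T0 in both treatments.

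Replicate numbers were compared one by one, although they do not tie an IgG library to an anti-PD-1 library by any label. Within numbers 1, 2 and 3 the difference of *Slc35c1* was -2.25, -1.02 and -3.01. That of *Rpia* was -1.10, -2.62 and -2.03, and that of *Atp5d* was -1.21, -1.81 and -2.42. All 3 genes were lower in each number. Across the 2078 genes, however, the differences of one number were almost unrelated to those of another, with Pearson's r of 0.06 (numbers 1 and 2), 0.01 (1 and 3) and 0.11 (2 and 3), genes not being independent replicates.

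Among the knockouts that lay higher under anti-PD-1, that of *Pik3cd* had the largest difference of those with separated groups. *Pik3cd* encodes the catalytic p110δ subunit of PI3K, which signals below the antigen receptor and costimulatory receptors of T cells. Its knockouts were at 1.48, 2.0 and 0.95 under IgG and at 2.16, 3.24 and 3.23 under anti-PD-1. They were thus above nontargeting sgRNAs in all 6 libraries, and every anti-PD-1 library exceeded the highest IgG library. The difference was 1.40 with a standard error of 0.38, all 5 sgRNAs were higher (1.02 to 1.83), and the adjusted p was 0.347, so that the gene did not pass. It passed where limma let the prior variance follow the level and down-weighted outlying genes, with an adjusted p of 0.0431, as did *Slc35c1* and *Pigx*. In that limma fit *Rpia* and *Atp5d* did not pass (adjusted p of 0.114 and 0.235). Measured against T0, whose libraries both treatments share, the *Pik3cd* level was higher by 1.37 under IgG and by 2.77 under anti-PD-1.

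*Ggct*, γ-glutamylcyclotransferase of glutathione breakdown, was at -0.17, -0.77 and -0.76 under IgG and at 0.28, 1.46 and 0.48 under anti-PD-1. The difference was 1.31 with a standard error of 0.37 (adjusted p = 0.347), and all 5 sgRNAs were higher. Knockouts of *Ggct* were thus below neutral in each IgG tumour and above it in each anti-PD-1 tumour. Among separated genes with at least 4 sgRNAs higher and 1 sign in all replicate numbers, the next 8 by difference were *Mocs1* (1.24), *Pde1a* (1.13), *Mogat2* (1.13), *Pcx* (1.11), *Pnpla2* (1.06), *Prodh* (1.03), *Ddo* and *Pigm* (0.99). They encode enzymes of molybdenum cofactor synthesis, cyclic nucleotide breakdown, diacylglycerol synthesis, pyruvate carboxylation, triglyceride lipolysis, proline oxidation, D-aspartate oxidation and GPI anchor mannosylation. All 8 had mean levels below 0 under IgG and above 0 under anti-PD-1, and their adjusted p ran from 0.411 to 0.495. No sgRNA of these 10 genes was at the shared lowest value.

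The knockouts with the lowest differences after the 3 that passed were mostly of genes already depleted under IgG. *Polr2h* and *Polr2e*, subunits common to the nuclear RNA polymerases, had differences of -1.69 and -1.48. *Polr3b*, the second largest subunit of RNA polymerase III, had a difference of -1.44, *Cox6c* of cytochrome c oxidase one of -1.63 and *Cds2*, a CDP-diacylglycerol synthase, one of -1.55. Their IgG means lay between -4.78 (*Polr3b*) and -2.13 (*Cox6c*). In *Polr2h* the number of values at the shared lowest value was 2 of 15 under IgG and 7 of 15 under anti-PD-1, and in *Polr3b* it was again 2 and 7. The exception was *Pigx*, at -0.12, 1.04 and 1.14 under IgG and at -0.15, -0.92 and -1.56 under anti-PD-1. Its groups were separated only narrowly, with a difference of -0.03 within replicate number 1, and its difference of -1.57 had an adjusted p of 0.347. The product of *Pigx* stabilises that of *Pigm*, the catalytic subunit of the same mannosyltransferase, and the differences of this pair ran in opposite directions (-1.57 and 0.99).

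**Figure D3:**
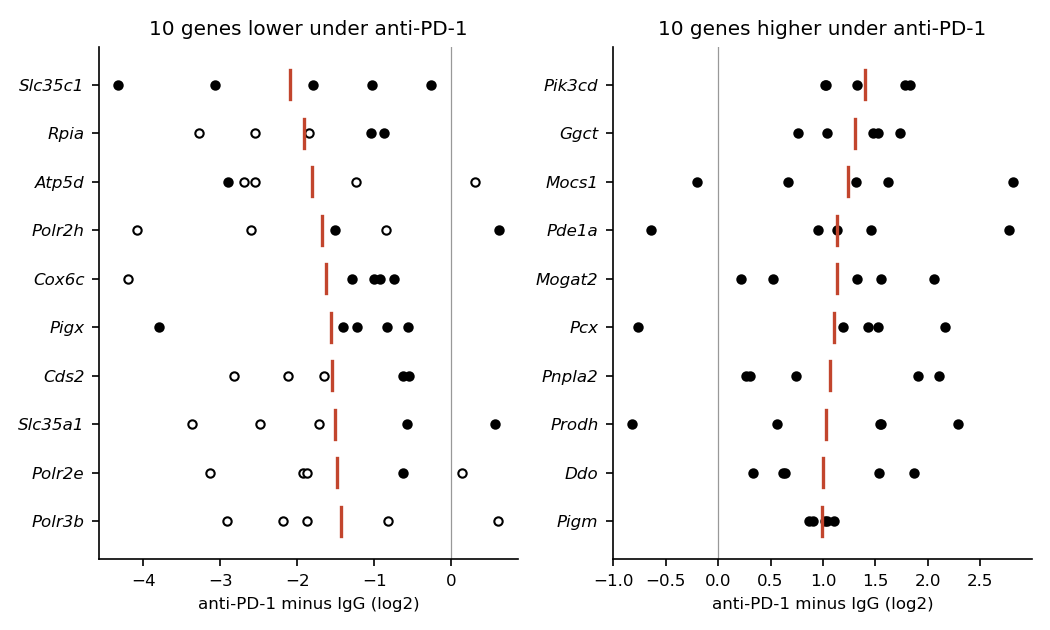
Difference of each sgRNA (points, anti-PD-1 minus IgG, log2) and of the gene (red line, mean of 5 sgRNAs) for the 10 lowest (left) and 10 highest (right) of the separated genes with at least 4 sgRNAs in that direction and 1 sign in all replicate numbers; the panels have different horizontal scales. Open points mark sgRNAs at the shared lowest value in at least 1 of the 6 libraries. They occur in 8 of the genes on the left and in none on the right. In *Pik3cd*, *Ggct* and *Pigm* the 5 sgRNAs lie close together. In *Slc35c1* the sgRNAs are spread from -4.33 to -0.26, with none at the shared lowest value.

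*Slc35a1*, the Golgi transporter of CMP-sialic acid, was at -2.98, -2.55 and -2.74 under IgG and at -3.63, -4.34 and -4.83 under anti-PD-1. The difference was -1.51 with a standard error of 0.35 (adjusted p = 0.237), and 3 of 15 values were at the shared lowest value under anti-PD-1 against 0 of 15 under IgG. Since *Slc35c1* belongs to the same family, all 8 members in the library were examined after these values were seen. *Slc35b2*, which carries the sulfate donor PAPS, had a difference of -1.10, and *Slc35d1*, a transporter of UDP-sugars, one of -0.64, both with separated groups. *Slc35a2*, the UDP-galactose transporter, lay at -5.16 under IgG and at -5.99 under anti-PD-1, with overlapping groups. *Slc35b4* and *Slc35d2* had differences of -0.34 and -0.25, and *Slc35a3*, linked to UDP-N-acetylglucosamine, was the only member above 0, at 0.42. The family had a median difference of -0.73, with 4 of 8 members separated downwards and 0 upwards, against 4.76% and 7.84% of all genes. Among the 4 were *Slc35c1* and *Slc35a1*, whose values led to this list, so the count is not independent evidence. Beyond *Slc35c1*, no member passed the limma threshold.

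The size and sign of a difference moved with the level of the knockout. When genes were ordered by their mean over the 6 libraries and cut into 10 bins, the 208 most depleted genes had a median difference of -0.20, and 131 of them lay below 0. In the bin with the highest levels the median difference was 0.21, and 55 of 208 genes lay below 0. Within numbers 1, 2 and 3 the median was -0.15, -0.07 and -0.28 in the lowest bin and 0.11, 0.26 and 0.25 in the highest. By their medians, depleted knockouts thus lay lower and abundant ones higher under anti-PD-1 in each number. Separated genes followed the same order, with 18 lower and 9 higher in the lowest bin and 3 lower and 33 higher in the highest. These bins share the libraries of the difference itself, and no test was made of the trend.

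Gene lists by function are described by their counts and medians, beside a median of 0.06 and separated shares of 7.84% higher and 4.76% lower over all genes. In signalling, the 12 PI3K subunits had a median of -0.02, and *Pik3cd* was the only member with separated groups. *Pik3r1*, the regulatory p85α subunit, was at 1.42, 1.57 and 1.15 under IgG and at 1.57, 1.98 and 2.29 under anti-PD-1. These groups overlapped by one library, and the difference of 0.57 with a standard error of 0.33 did not pass (adjusted p = 0.696). Of the 10 diacylglycerol kinases, *Dgke* had separated groups and a difference of 0.93. *Dgkz*, which removes the diacylglycerol made on T cell receptor signalling, was enriched at 1.26 under IgG and at 1.45 under anti-PD-1, a difference of 0.19 with a standard error of 0.35. Of the 14 phospholipases C, which make that diacylglycerol, 3 were separated upwards and 0 downwards, with *Plcb3* at 0.86 and *Plcb1* at 0.82. The 48 phosphoinositide and inositol phosphate enzymes had 5 in each direction, from *Pi4kb* at -1.19 and *Inpp4a* at -1.06 to *Impa2* at 0.86 and *Mtm1* at 0.95. Among 44 cyclases and phosphodiesterases of cyclic nucleotides 4 were separated upwards, led by *Pde1a*, *Pde4b* (0.97) and *Pde9a* (0.91), and 1 downwards.

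In glycosylation, differences ran both ways. Of the 19 genes of N-glycan trimming and branching, 3 were separated upwards, among them *Mgat2*, which starts the second antenna and lay at 0.95 under IgG and at 1.64 under anti-PD-1, and 2 downwards, *Fut8* and *Mogs* (-0.77). Of 15 genes of poly-LacNAc extension, *B3gnt2*, the main enzyme of that chain, was at 1.38, 1.63 and 1.25 under IgG and at 1.74, 2.22 and 1.79 under anti-PD-1. The groups of *B3gnt2* did not overlap, but its difference of 0.50 with a standard error of 0.32 had an adjusted p of 0.769. *B4galt2*, a galactosyltransferase, was the lowest member of that list at -0.87. Of the 22 genes of GPI anchor synthesis, 4 were separated upwards (*Pigm*, *Gpaa1*, *Pigw* and *Pigz*) and 1 downwards (*Pigx*). The 28 genes of the dolichol pathway had 4 upwards and 2 downwards, with *Nus1*, a subunit of the enzyme that makes the dolichol chain, lowest at -1.11, although at 0.07 without the lowest 10% of sgRNAs. In the 44 genes of mucin-type glycans and sialylation, 2 were separated upwards and 3 downwards. The 3 were *Slc35a1*, *Gcnt4* (-0.84) and *Nans*, which makes sialic acid (-0.79).

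Subunits of RNA polymerases and of the respiratory chain, depleted under both treatments, had separated members on the lower side only, whereas the dolichol list, with median levels of -2.37 and -2.82, had more on the higher side. The 26 RNA polymerase subunits had a median level of -4.22 under IgG and 5 members separated downwards and 0 upwards. *Polr1d*, a subunit of RNA polymerases I and III, was at -4.86, -3.83 and -3.87 under IgG and at -5.07, -5.03 and -6.36 under anti-PD-1, a difference of -1.30 with a standard error of 0.41 (adjusted p = 0.411). The list's median was 0.13, and with values as deposited that median was 0.00. *Polr1a* had the highest difference, 0.86, but one of -0.31 with the median of its sgRNAs. Among 35 genes of respiratory complexes II to IV, 6 were separated downwards and 0 upwards. They included *Cox6c*, *Sdhd* (-1.11), *Cox5a* (-1.07) and *Cox7c* (-0.88), and the list's median was -0.09. Complex I, with 38 genes, had 3 downwards (*Ndufa5* at -1.28, *Ndufb2* at -1.12 and *Ndufv2* at -0.80) and 0 upwards, with a median of -0.12. Without the lowest 10% of sgRNAs *Ndufa5* was at 0.08. In the ATP synthase, 1 of 15 genes was separated, *Atp5d*, while *Atp5c1*, another F1 subunit, had a difference of 1.28 with overlapping groups, which became -0.12 without the lowest 10% of sgRNAs.

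Apart from the *Slc35* family, which was assembled after its values were seen, the 19 ribosomal protein genes had the lowest median of the lists, at -0.20, and with log2(value + 10) it was -0.01. *Rpl9* was at -6.28, -5.57 and -5.49 under IgG and at -7.27, -7.02 and -6.70 under anti-PD-1, and it was the only ribosomal gene with separated groups. Its difference was -1.22 with a standard error of 0.34 (adjusted p = 0.347), and values at the shared lowest value numbered 5 of 15 under IgG and 12 of 15 under anti-PD-1. With log2(value + 10) the difference of *Rpl9* was -0.31. At such levels the signal was near the lowest it could take in either group, and a further loss would not have been measured in full.

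In central carbon and nucleotide metabolism, the 46 genes of glycolysis and the pentose phosphate pathway had 5 separated downwards and 1 upwards. *Rpia* led, followed by *Pfkp*, the platelet-type phosphofructokinase (-0.77), and *Gapdh* (-0.73), the last at 0.48 with the median of its sgRNAs. Of the 24 genes of the TCA cycle and pyruvate entry, *Pcx* and *Idh3g* (0.59, but -0.25 with the median of its sgRNAs) were separated upwards and none downwards. Of 30 genes of pyrimidine and deoxynucleotide synthesis, 4 were separated upwards and 2 downwards. *Cmpk1*, the kinase of UMP and CMP, was lowest at -1.35, and *Umps*, which makes UMP, lay at -0.90. *Cad*, which starts the same route, was separated the other way at 0.56. In the serine, folate and methionine cycles *Ahcy* was lowest at -1.21 and *Mat2b*, a regulatory subunit of methionine adenosyltransferase, lay at -1.10. Among 36 genes of purine synthesis and salvage 2 were separated in each direction.

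In lipid metabolism, the 23 genes of mevalonate and cholesterol synthesis had 3 separated upwards and 0 downwards and a median of 0.22. *Dhcr7*, of the last step, lay at 0.20 under IgG and at 1.07 under anti-PD-1. The median of that list fell to 0.06 without anti-PD-1 replicate 3 or IgG replicate 3. *Elovl1*, an elongase of very long chain fatty acids, was at -0.66, -0.32 and -0.15 under IgG and at -0.20, -0.76 and 1.02 under anti-PD-1. The groups overlapped, the difference was 0.40 with a standard error of 0.41 (adjusted p = 0.867), and it was -0.10 without anti-PD-1 replicate 3. None of the 12 elongation genes had separated groups. The 43 genes of glycerophospholipid and triglyceride synthesis ranged from *Cds2* at -1.55 to *Mogat2* at 1.13, with 5 separated upwards and 2 downwards. *Gpx4*, which detoxifies lipid peroxides, lay at -2.01 under IgG and at -1.04 under anti-PD-1 with separated groups. In transport, 3 of 30 amino acid transporters (*Slc43a1*, *Slc1a4* and *Slc1a7*) and 3 of 23 genes in the list of glucose and monocarboxylate transporters (*Slc5a5*, *Slc5a8* and *Slc5a12*) were separated upwards and none downwards. The latter list was drawn by family name, and *Slc5a5* in it encodes an iodide transporter. The amino acid transporter with the highest difference was *Slc7a5*, at -3.79, -3.49 and -5.67 under IgG and at -3.70, -2.89 and -3.37 under anti-PD-1, and its groups overlapped. The 24 histone lysine methyltransferases had a median of 0.24 and no separated member.

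A list of another kind held 83 genes that the study had listed as enriched in both of its analyses. Of these, 20 were separated upwards and 5 downwards, with a median difference of 0.28. The study chose them on libraries that included these 6, and the count is not independent evidence of a direction. *Pik3cd*, *Ggct*, *Mogat2* and *Pigm* were among the 20, and *Pigx* and *Acsl5* (-0.71), an acyl-CoA synthetase, among the 5.

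**Figure D4:**
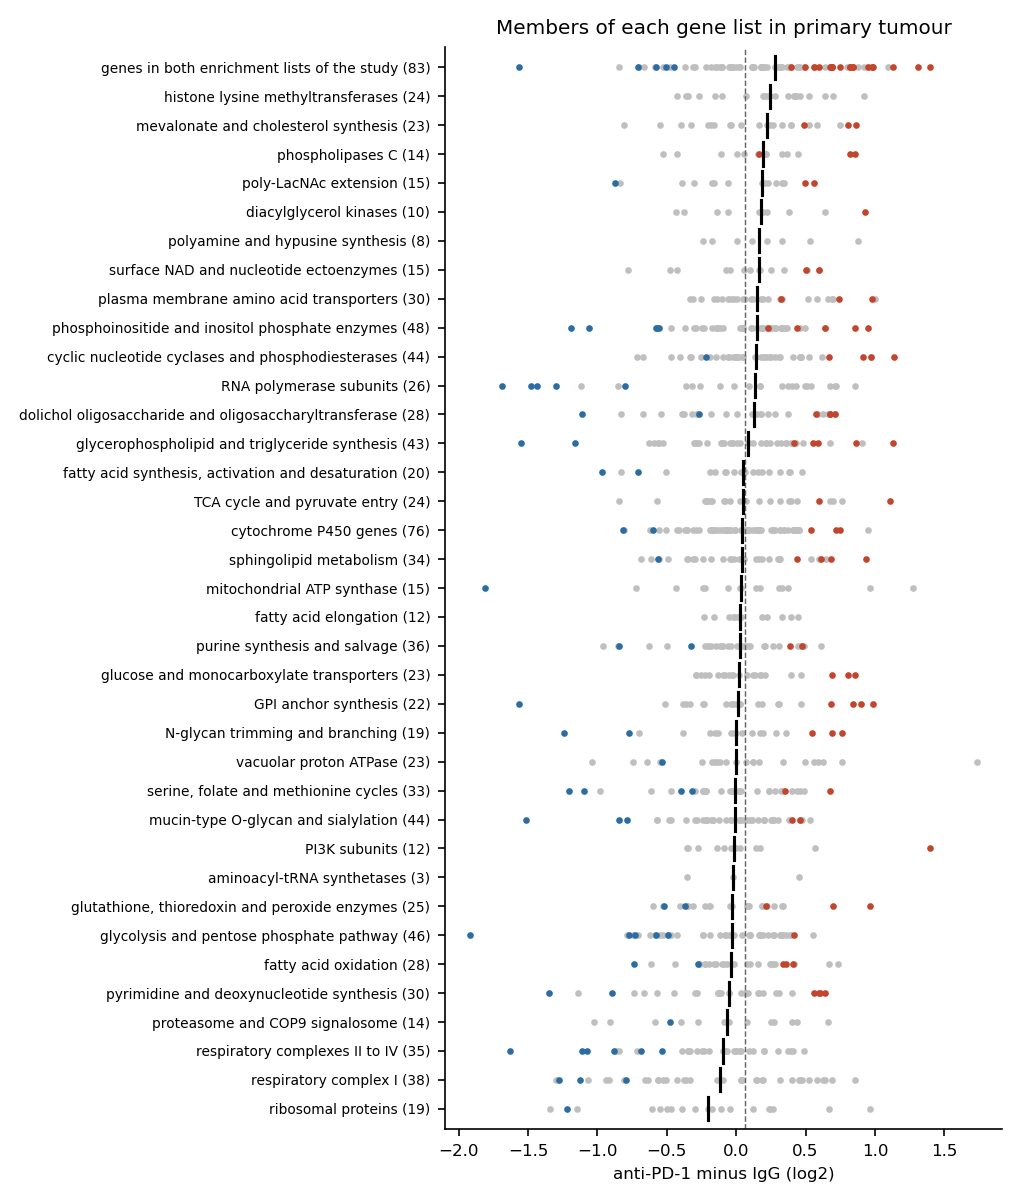
Difference (anti-PD-1 minus IgG, log2) of each member of 37 gene lists, with the number of members in parentheses, ordered by the list's median (black bar); the dashed line is the median of all genes, 0.06. Red and blue points are genes whose groups did not overlap, higher and lower under anti-PD-1. Blue points below -1 occur in RNA polymerase and respiratory chain lists and in several others, among them N-glycan, GPI anchor, sialylation and glycerophospholipid lists. The list medians lie only between -0.20 and 0.28.

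Spleen and lung served to ask whether the tumour's differences were particular to it. Outside the lymph nodes, they were the other organs with 3 libraries per treatment. In one fit of these 18 libraries, the anti-PD-1 effect in tumour differed from that in spleen in 0 of 2078 genes and from that in lung in 0 (limma with Benjamini-Hochberg adjustment, smallest adjusted p 0.999 and 0.998). At an unadjusted p under 0.05 there were 16 genes for spleen and 63 for lung. The tumour effect itself was called in 0 genes of that fit (smallest adjusted p 0.9999), with 1 gene higher and 5 lower at an unadjusted p under 0.05, so that the fit does not settle whether the 3 genes were particular to tumour. Differences were wider in both organs, with an SD over genes of 0.75 in spleen and 1.02 in lung against 0.44 in tumour. Across genes the tumour difference correlated with that in spleen at Pearson's r = 0.25 and with that in lung at 0.29. The organs of a mouse were collected together, so that libraries of different organs may share mice, and which mice gave which library was not given in the sources used here. Of the 10 genes highest in tumour by the rule above, 6 were above 0 in spleen, against 40.7% of all 2078 genes, and 8 in lung, against 58.9%. Of the 10 lowest, 8 were below 0 in spleen, against 59.3% of all genes, and 9 in lung, against 41.1%.

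*Slc35c1* was at 0.72, 1.04 and 0.72 in lung under IgG and at -2.19, -5.40 and -4.01 under anti-PD-1. In spleen it was at -0.05, 0.52 and -0.42 under IgG and at -1.50, -3.91 and 0.04 under anti-PD-1. The groups were apart in lung and overlapped in spleen, where anti-PD-1 replicate 3 was near neutral. The tumour effect exceeded the lung effect by 2.60 with a standard error of 1.16, being less negative, and had an adjusted p of 0.998. *Gmds* in spleen was at 0.88, 0.85 and -0.10 under IgG and at -0.28, -2.60 and -1.20 under anti-PD-1, and *Fut8* there was at 0.10, -0.18 and -0.17 and at -1.06, -3.70 and -0.68. Both were separated downwards in spleen, and their lung groups overlapped. *Ggct* was separated upwards in all 3 organs, with differences of 1.31 in tumour, 1.01 in spleen and 2.14 in lung. The same held for *Mgat2* upwards and for *Sdhd* downwards. *Rpia* and *Atp5d* had differences of -0.89 and -0.86 in spleen and of -0.63 and -0.99 in lung, with overlapping groups in both organs. *Pik3cd* had differences of 0.57 in spleen and 1.10 in lung, also with overlapping groups.

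**Figure D5:**
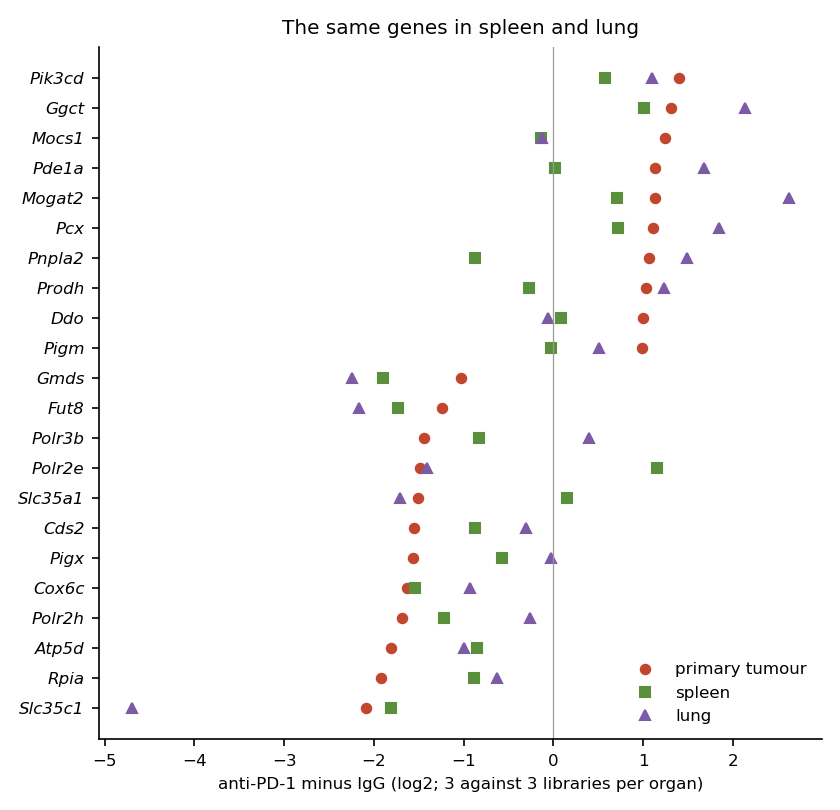
Difference (anti-PD-1 minus IgG, log2) in primary tumour (circles), spleen (squares) and lung (triangles) for the 20 genes of the plot of sgRNA differences and for *Gmds* and *Fut8*; each point is the mean of 3 anti-PD-1 minus the mean of 3 IgG libraries. Genes were chosen by their tumour values; *Slc35c1*, *Gmds* and *Fut8* lie below 0 and *Ggct* above 0 in all 3 organs, and *Slc35c1* in lung is lowest at -4.69.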

How the data were processed

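Primary tumour libraries were grouped by their labels. The signal per sgRNA and library was deposited by the authors, who used MAGeCK-VISPR 0.5.3 for counting, scaled to the 250 nontargeting sgRNAs, applied ComBat across organs and excluded 2 samples after quality control. Further settings and the genome build are not given in the sources used here, and no coordinates or sgRNA sequences are printed. Values are not whole numbers, so neither a count test nor a counting interval was used.

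Signals were taken as log2(value + 1), centred on the nontargeting median, averaged over 5 sgRNAs and tested with limma 3.58.1 in R 4.3.3 on 6 libraries (prior degrees of freedom 12.3, prior variance 0.183). Genes with an adjusted p (Benjamini-Hochberg, 2078 genes) up to 0.05 were called. The same fit per sgRNA called 0 of 10640, with 352 higher and 346 lower at an unadjusted p under 0.05. Fits were tested on simulated data. Replicates are labelled as biological, and p-values cover the spread between these libraries only. Named genes are those called, the 10 highest and 10 lowest among separated genes with at least 4 sgRNAs in that direction and 1 sign in all replicate numbers, 7 genes the study names, the extremes of each list and any gene called between organs. Others, including further list members, were named after their values were seen, and not every extreme is printed. Members and lists were chosen with earlier results of these data known. Alternatives changed the pseudocount, centring, summary of sgRNAs, low values, variance model, block and libraries. Figures were drawn with matplotlib 3.10.9 in Python 3.11.15.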

Additional observations from a re-analysis of the deposited data

How the results depend on the processing

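With the replicate number as a block, 3 genes were called, the same ones, with an adjusted p of 0.0497 for each (limma with Benjamini-Hochberg adjustment), 0 genes were called higher, and no other call changed. Deviations of same-numbered libraries from their group means correlated at -0.09, -0.06 and -0.10, so these libraries did not deviate together in the deposited values. Those values were batch-corrected before deposit, which can remove a shared deviation. The correlations therefore cannot settle whether the numbers pair the libraries. Under the block the poly-LacNAc median, taken as the mean of the medians within numbers, was -0.00407 in place of 0.19, and the same mean turned the sign, within the SD between libraries, in RNA polymerase (-0.066 in place of 0.13), aminoacyl-tRNA synthetases (0.13 in place of -0.025) and 6 further lists. Of the 3 genes, 3 were called with each other centring and with library weights, 1 with log2(value + 10), and 0 with the median of the sgRNAs, without the lowest 10% of sgRNAs (which left *Atp5d* without sgRNAs), with the shared lowest values set to 0 (adjusted p of 0.0540), with all libraries in one fit or with all except lymph nodes. With trend and robust limma, 1 gene was called higher. Of the 3 genes, *Slc35c1* passed in that fit, whereas *Rpia* (adjusted p = 0.114) and *Atp5d* (adjusted p = 0.235) did not. Fits without 1 library called 0 to 1 genes lower and 0 to 1 higher. Of 94 named genes refitted under these alternatives, 77 kept their sign in each. Signs turned with the median of the sgRNAs in *Gapdh* (0.48), *Idh3g* (-0.25), *Polr1a* (-0.31), *Tkt* (-0.62), *Slc1a7* (-0.031) and *Slc7a5* (-0.030), without the lowest 10% of sgRNAs in *Atp5c1* (-0.12), *Ndufa5* (0.079), *Nus1* (0.066), *Pgd* (0.052) and *Rpe* (0.53), with log2(value + 10) in *Pgd* (0.086), as deposited in *Fpgt* (-0.00846) and *Fut7* (-0.050), and with library weights in *Fut7* (-0.074). Leaving out 1 library also turned signs within the ranges of *Dgkz* (-0.061 to 0.43), *Elovl1* (-0.10 to 0.79), *Cpt1a* (-1.03 to 0.028), *Fpgt* (-0.13 to 0.44), *Fut4* (-0.75 to 0.39), *Fut7* (-0.30 to 0.37), *Pgd* (-0.36 to 0.39), *Rpe* (-1.19 to 0.26) and *Tkt* (-0.056 to 0.69). No alternative called an sgRNA (those were chosen after seeing the data) or a difference between organs.

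List medians moved by more than the SD between libraries in 35 of 370 refits. As deposited, they were 0.016 for phosphoinositide enzymes, 0.046 for diacylglycerol kinases, 0.057 for phospholipases C, 0.00666 for cyclases and phosphodiesterases, -0.087 for the TCA cycle, -0.11 for purines, -0.19 for pyrimidines, -0.14 for serine and folate, -0.11 for elongation, -0.093 for sphingolipids, -0.045 for glycerophospholipids, 0.029 for ectoenzymes, -0.089 for cytochrome P450 genes (0.00162 when centred on all sgRNAs) and 0.15 for the study's 83 genes. Ribosomal proteins were at -0.015 with log2(value + 10). Without 1 library, medians ran from 0.041 to 0.15 for phosphoinositide enzymes, -0.00373 to 0.15 for poly-LacNAc, -0.50 to -0.020 for ribosomal proteins, -0.41 to 0.21 for aminoacyl-tRNA synthetases, 0.018 to 0.27 for the TCA cycle, -0.17 to 0.10 for pyrimidines, 0.056 to 0.40 for mevalonate, 0.015 to 0.20 for glycerophospholipids, -0.13 to 0.15 for glucose and monocarboxylate transporters, -0.00144 to 0.37 for ectoenzymes and 0.086 to 0.39 for histone methyltransferases. The cause of these moves was not tested. Read depth is unknown, and levels near the lowest value limit what a further loss could show.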

Other observations

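A single sgRNA of *Cpt1a*, the carnitine palmitoyltransferase of fatty acid import into mitochondria, had a signal of 63646 in IgG replicate 3 and made up 2.80% of that library. The most abundant sgRNA of each of the other 5 tumour libraries made up 0.134% to 0.325%. The level of *Cpt1a* was 1.89 in that library and 0.14 and -0.23 in the other IgG libraries, against 0.35, 0.09 and -0.49 under anti-PD-1.

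*Atp6v1h*, a subunit of the vacuolar proton pump, had the highest difference of all genes, at 1.73 with a standard error of 0.58 (limma adjusted p = 0.427). Its knockouts were at -3.09, -3.24 and -3.95 under IgG and at -3.47, -1.46 and -0.15 under anti-PD-1, so that replicate 1 overlapped the IgG libraries and the other two lay above them.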
